A study of Mus musculus with 7 samples.

Results

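Germline genes encode proteins that are needed in germ cells and meiosis, and they are kept silent in embryonic stem cells (ESCs). The genes described here are Dazl, Ddx4, Mael, Stk31, Sycp3, Sycp1, Hormad1, Sohlh2 and Slc25a31. They were chosen by name, as all rows of the ChIP-seq files whose gene symbol is one of these 9, and they hold 12 of the 36733 transcription start sites (TSSs) of each Flag ChIP file and 12 of the 22704 of each p400 file. Dazl, Sohlh2 and Hormad1 have 2 rows each, the other genes 1. For these genes, the first row with a RefSeq identifier stands for the gene below, unless the other row is named. No expression was measured in these samples, so the silence of the genes and the identity of the cells could not be checked in them against RNA levels. The paper also measured mRNA by microarray in ESCs upon GFP, Tip60 and Hdac6 KD, and those data were not used here.

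The 7 samples were mouse E14 ESCs grown without feeders, 1 sample per condition. Tip60-H3F ESCs carry a C-terminal tag of His and Flag epitopes on 1 of the endogenous copies of Tip60, and Hdac6-H3F ESCs carry the same tag on endogenous Hdac6. Chromatin was precipitated with the Flag-M2 antibody from Tip60-H3F ESCs upon Hdac6 KD or GFP KD, the control knockdown, from Hdac6-H3F ESCs upon GFP KD and upon Tip60 KD, and from untagged E14 ESCs, in which the antibody measures background. An antibody against p400 was used in wild type E14 ESCs after either GFP KD or Hdac6 KD. Knockdown samples were taken 72 hr after lentiviral infection, whereas no infection is given for the untagged sample. The sample titled as Tip60 KD with Hdac6 ChIP has a genotype label that names Hdac6 KD instead. It was grouped by its title, and every value from it carries this doubt. The labels name 1 line per tag, and no condition has a replicate, so the spread between cultures is unknown.

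Tip60 is the acetyltransferase and p400 the ATPase of the Tip60-p400 chromatin remodeling complex, and Hdac6 is a deacetylase best known for its cytoplasmic substrates such as tubulin. Germline gene promoters are mostly rich in CpG dinucleotides, and in somatic cells many are silenced by DNA methylation. In ESCs a Polycomb complex with Mga, Max and E2f6 is known to hold many of them silent. Max and its partners bind the E-box CACGTG, and E2f6 binds sequences such as GCGGGAA. The comparisons ask whether Tip60, p400 and Hdac6 were detected at these promoters, and whether their levels differed when Hdac6 or Tip60 was depleted.

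The promoters were read from the mm9 genome, the build of the files, from 250 bases upstream of the TSS to 49 bases downstream of it. Both strands were searched for each motif, and CACGTG reads the same on both. It was found in 8 of the 9 genes, and in 6.99% of the 36723 promoters of the files for which the sequence could be read. GCGGGAA was found in 5 of the 9 genes and in 4.98% of all promoters. The 5 genes with GCGGGAA, which are Sycp3, Ddx4, Dazl, Slc25a31 and Hormad1, also had CACGTG, a combination present in 0.52% of all promoters. Among the 16288 promoters with an observed over expected CpG ratio of at least 0.5, the shares were 10.6% for CACGTG, 9.44% for GCGGGAA and 1.05% for both. Sohlh2 had neither motif. The E2F sequence GCGCCAAA and the octamer ATGCAAAT, bound by Oct4 and its relatives, were in none of the 12 rows, and in 0.539% and 1.56% of all promoters. These matches are descriptions of letters, and say nothing of binding.

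The 5 promoters that hold both motifs are shown because they share this feature. The genes were picked by name from a class in which the Polycomb complex described above is known to silence many members. Their choice may therefore not be independent of these motifs. The shares of genes and of all promoters with a motif are descriptions, and whether the genes are enriched for it was not tested. They lie at chr10:87922082-87922381 on the plus strand (Sycp3), chr13:113442460-113442759 on the minus strand (Ddx4), chr17:50432168-50432467 on the minus strand (Dazl), chr3:40512604-40512903 on the plus strand (Slc25a31) and chr3:95363349-95363648 on the plus strand (Hormad1). Each is written in the direction of transcription, and capitals mark CACGTG and GCGGGAA, the latter as TTCCCGC where it lies on the opposite strand.
Sycp3: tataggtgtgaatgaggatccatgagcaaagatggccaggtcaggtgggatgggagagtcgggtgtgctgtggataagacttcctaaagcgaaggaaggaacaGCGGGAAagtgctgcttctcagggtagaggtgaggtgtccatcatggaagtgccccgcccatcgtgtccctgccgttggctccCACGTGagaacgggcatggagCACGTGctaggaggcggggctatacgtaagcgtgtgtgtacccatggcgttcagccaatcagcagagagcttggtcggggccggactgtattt
Ddx4: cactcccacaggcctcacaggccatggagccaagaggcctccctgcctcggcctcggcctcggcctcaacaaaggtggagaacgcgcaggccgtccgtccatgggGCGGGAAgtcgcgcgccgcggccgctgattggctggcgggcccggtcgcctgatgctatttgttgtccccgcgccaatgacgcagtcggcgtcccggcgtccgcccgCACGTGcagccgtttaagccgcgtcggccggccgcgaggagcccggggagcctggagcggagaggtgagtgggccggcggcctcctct
Dazl: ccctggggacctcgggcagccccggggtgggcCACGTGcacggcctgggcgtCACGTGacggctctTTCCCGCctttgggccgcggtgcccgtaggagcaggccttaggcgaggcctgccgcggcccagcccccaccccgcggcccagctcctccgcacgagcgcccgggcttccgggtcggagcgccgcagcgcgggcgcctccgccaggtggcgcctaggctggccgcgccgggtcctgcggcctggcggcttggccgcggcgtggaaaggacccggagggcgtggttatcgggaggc
Slc25a31: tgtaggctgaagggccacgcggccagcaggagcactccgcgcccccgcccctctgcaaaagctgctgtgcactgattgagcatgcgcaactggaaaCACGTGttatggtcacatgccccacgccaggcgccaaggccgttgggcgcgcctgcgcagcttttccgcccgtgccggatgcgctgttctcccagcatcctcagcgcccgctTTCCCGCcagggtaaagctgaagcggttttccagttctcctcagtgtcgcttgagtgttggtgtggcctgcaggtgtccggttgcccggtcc
Hormad1: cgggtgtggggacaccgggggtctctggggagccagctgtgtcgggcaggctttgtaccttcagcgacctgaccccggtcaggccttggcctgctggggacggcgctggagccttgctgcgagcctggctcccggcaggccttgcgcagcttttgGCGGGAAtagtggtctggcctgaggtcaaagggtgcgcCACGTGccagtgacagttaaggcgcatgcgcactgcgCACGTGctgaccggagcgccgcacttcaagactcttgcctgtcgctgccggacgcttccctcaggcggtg

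With the TSS counted as 0, CACGTG began at -64 and -43 bp in Sycp3, at -38 in Ddx4, at -218 and -198 in Dazl, at -154 in Slc25a31 and at -57 and -20 in Hormad1. In the other genes that hold it, it began at -223 in Mael, -110 in Sycp1 and -120 in Stk31. All matches in the 9 genes were thus upstream of the TSS of their own row, in a window that lies mostly upstream. The second Dazl row, whose TSS at position 50432924 is 707 bp upstream of the first, held neither motif within its own window. The Dazl matches lie between these TSSs, and thus downstream of the upstream one.

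The rows lie at annotated transcript starts or close to them. In the GENCODE annotation of mm9 the nearest start of the same gene was 0 to 77 bp away for 11 of the 12 rows, and each of these TSSs fell in an exon outside the coding part. The exception is the second Sohlh2 row, at position 54993043, which lies in a coding exon 7093 bp from the nearest annotated start. This row was also poor in CpG, with an observed over expected ratio of 0.19 over 1 kb, whereas the other 11 rows ranged from 0.54 (Sohlh2) to 0.82 (Dazl). The median over all rows was 0.39, and over olfactory receptor rows 0.14. GC content of the 9 genes ran from 52.1% (Hormad1) to 64.3% (Ddx4), against a median of 52.9% over all rows. No row of another gene lay closer than 8.5 kb (Ddx4), so the windows held the promoter of 1 gene only.

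Levels are given as RPM, the reads within 500 bp of the TSS per 1000000 normalizing reads of the library. The deposited coverage was made of whole multiples of the value of 1 read, which gave normalizing totals of 21339000 reads for Tip60 upon GFP KD, 19161000 for Tip60 upon Hdac6 KD, 11586000 for Hdac6 upon GFP KD, 9227000 for Hdac6 upon Tip60 KD, 23147000 for the untagged sample, 25308000 for p400 upon GFP KD and 31376000 for p400 upon Hdac6 KD. A read covered 148 to 149 bp in the Hdac6 files and 299 bp in the others, and this length was divided out. The median row held 8.2 to 20.7 reads in this window, and the 9 genes held 2 to 43 reads each. Intervals are 95% intervals that cover the counting of reads only, since reads without molecular identifiers are not independent molecules. More protein per cell and more cells with protein at a site cannot be told apart in such bulk samples.

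Dazl, Ddx4, Mael and Stk31 belong to the RNA and transposon control of germ cells. Dazl, an RNA-binding protein of early germ cells, had 0.395 RPM in Tip60 upon GFP KD, 0.363 in Tip60 upon Hdac6 KD, 0.593 in the untagged sample, 1.78 in Hdac6 upon GFP KD, 0.263 in Hdac6 upon Tip60 KD, 0.780 in p400 upon GFP KD and 0.345 in p400 upon Hdac6 KD. Both Tip60 samples were thus below the untagged sample at Dazl, and the Hdac6 sample upon GFP KD was the highest of the 7. At the upstream Dazl TSS, whose window overlaps the first, the levels in the same order were 0.696, 0.601, 0.630, 2.34, 0.482, 0.997 and 0.582. Hdac6 upon GFP KD stood out there as well, at percentile 97.5 of the 22704 RefSeq rows.

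Ddx4, the Vasa RNA helicase, had 0.881 RPM in Tip60 upon GFP KD, 0.154 in Tip60 upon Hdac6 KD, 0.648 in the untagged sample, 1.08 and 1.61 in Hdac6 upon GFP KD and Tip60 KD, with 0.833 in p400 upon GFP KD and 0.482 upon Hdac6 KD. The level of Tip60 upon Hdac6 KD was the lowest of any of the 9 genes in any sample and rested on 3 reads. Mael, a factor of the piRNA pathway that restrains transposons, had 0.718, 0.587, 0.289, 1.26, 1.62, 1.01 and 0.642 in the same order. Its untagged level was the lowest of the 9 genes, at percentile 15.3 of the RefSeq rows. Stk31, a germ cell protein with a Tudor domain and a kinase domain, had 0.521, 0.587, 0.515, 1.21, 2.29, 1.41 and 0.535. The Tip60 and untagged levels at Stk31 lay within each other's counting intervals, and p400 was higher upon GFP KD than upon Hdac6 KD.

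Sycp3, Sycp1 and Hormad1 encode proteins of meiotic chromosomes. Sycp3, a part of the lateral elements of the synaptonemal complex, had 1.01 RPM in Tip60 upon GFP KD, 0.496 in Tip60 upon Hdac6 KD, 0.839 in the untagged sample, 2.93 and 1.80 in Hdac6 upon GFP KD and Tip60 KD, and 1.69 and 0.904 in p400 upon GFP KD and Hdac6 KD. It was the highest of the 9 genes in Hdac6 and p400 upon GFP KD, at percentiles 99.6 and 95.2 of the RefSeq rows, but also in the untagged sample, at 88.5. Sycp1, which forms the transverse filaments of the same complex, had 1.15, 0.433, 0.544, 1.23, 0.511, 1.13 and 0.682. Sycp1 was the highest of the 9 genes in Tip60 upon GFP KD. Hormad1, a protein of the meiotic chromosome axis, had 0.690, 0.639, 0.795, 1.45, 0.701, 0.952 and 0.849, with Tip60 below the untagged level in both samples. Its second row, 2 bp downstream, nearly repeats these values.

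The remaining genes are a transcription factor and a carrier. Sohlh2, a bHLH factor of early spermatogenesis and oogenesis, had 0.888 RPM in Tip60 upon GFP KD, 0.485 in Tip60 upon Hdac6 KD, 0.778 in the untagged sample, 1.60 and 1.40 in Hdac6 upon GFP KD and Tip60 KD, and 1.28 and 0.808 in p400 upon GFP KD and Hdac6 KD. At the CpG-poor row within the gene the levels were lower in 6 of the 7 samples, and only Tip60 upon Hdac6 KD was higher, at 0.831. Slc25a31, the germline form of the mitochondrial ADP/ATP carrier, had 0.655, 0.569, 0.714, 2.57, 2.03, 1.23 and 0.674. It was second to Sycp3 in Hdac6 upon GFP KD, at percentile 98.8.

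**Figure D1:**
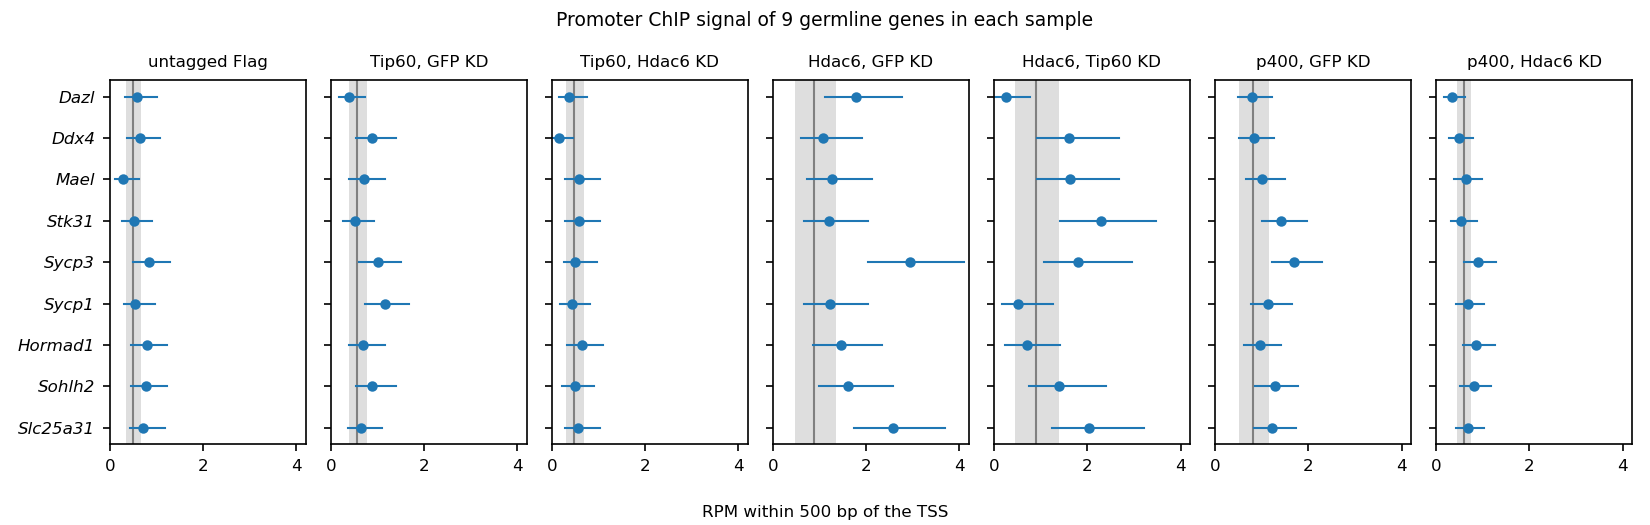
Levels at the promoters of the 9 genes in each sample, as RPM within 500 bp of the TSS, with 95% counting intervals as lines. The grey band spans the quartiles of all rows of the file and the grey line is their median; Sycp3 and Slc25a31, at 2.93 and 2.57, lie far to the right of the band in Hdac6 upon GFP KD, whereas in the Tip60 samples most of the genes lie within or near it.

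Over the 9 genes the median level was 0.718 RPM in Tip60 upon GFP KD and 0.648 in the untagged sample, against 0.590 and 0.518 over the RefSeq rows. In Hdac6 upon GFP KD the median was 1.45 against 1.00, and all 9 genes were above the median RefSeq row. In p400 upon GFP KD it was 1.13 against 0.817, with 8 of the 9 above. In the untagged sample 7 of the 9 genes were above it, as in Tip60 upon GFP KD. The intervals of neighbouring genes overlapped in every sample, so the order of neighbours within a sample was not resolved at this depth.

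Whether Tip60 was detected at these genes was asked by comparing Tip60 upon GFP KD with the untagged sample. The ratio was above 1 in 6 of the 9 genes, against 60.6% of all rows, and its median was 1.14, against 1.12 over all rows. Mael and Sycp1 were at least 2-fold higher, which makes 2 of 9 genes, against 12.2% of all rows. Mael had 15 reads in Tip60 and 7 in the untagged sample, a ratio of 2.30 with a counting interval of 0.892 to 6.74, and its untagged level was the lowest of the 9. Sycp1 had 24 and 13 reads, a ratio of 2.04 (0.980 to 4.28). In the exact binomial test of the reads of both libraries, with Benjamini-Hochberg adjustment over all rows, 0 of the 9 genes passed an adjusted p of 0.05, against 1.35% of all rows that passed and were higher. The smallest adjusted p was 0.419, at Sycp1, the 1 gene with an unadjusted p under 0.05, against 11.5% of all rows. Tip60 above background was thus not detectable at any of the 9 genes at this depth. For Dazl, Slc25a31 and Hormad1 the ratios were 0.695, 0.927 and 0.879, with upper bounds of 1.58, 1.93 and 1.90, so a level of 2-fold over the untagged sample lay outside their intervals. At the upstream Dazl TSS the ratio was 1.10 (0.494 to 2.38), and 2-fold lay within its interval. With the totals of all rows set equal, no gene reached 2-fold.

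Hdac6 upon GFP KD was above the same untagged sample in all 9 genes, and 79.5% of all rows had a ratio above 1. The median ratio was 2.32 over the genes and 1.76 over all rows. At least 2-fold higher were 7 of the 9 genes, all but Ddx4 and Hormad1, against 40.4% of all rows. Of the 9 genes, 4 passed the exact test with Benjamini-Hochberg adjustment over all rows, against 22.3% of all rows. Sycp3 had 34 reads in Hdac6 and 19 in the untagged sample, a ratio of 3.42 with an interval of 1.98 to 6.63 and an exact test adjusted p = 0.000194. Slc25a31 had 30 and 17 reads, a ratio of 3.51 (1.88 to 6.81) and an exact test adjusted p = 0.000641. Mael had 15 and 7 reads, a ratio of 4.04 (1.64 to 12.4) and an exact test adjusted p = 0.00831. At Dazl there were 21 and 14 reads, a ratio of 2.93 (1.45 to 6.37) and an exact test adjusted p = 0.0129, and at the upstream Dazl TSS 27 and 15 reads gave 3.60 (1.85 to 7.27) and 0.000910. The other 5 genes had ratios from 1.69 (Ddx4) to 2.32 (Stk31) and adjusted p-values from 0.0835 to 0.337. The Tip60 and Hdac6 comparisons share the untagged sample.

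The size of the Hdac6 ratio rests on how the libraries are scaled. With the totals of all rows set equal, the median ratio of the genes was 1.27 and that of all rows 0.956, 1 gene was at least 2-fold higher against 11.1% of all rows, and 0 of 9 passed the adjusted test, against 1.81%. With equal signal in the flanks Dazl no longer passed it, and in a window of 250 bp on either side of the TSS Slc25a31 did not. In the deposited ppm values, where the longer reads of the untagged file raise its coverage, the median was 1.15 against 0.872.

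A comparison within each library does not need that scaling. Promoter reads per bp were set against those in the flanks, 1500 to 2000 bp from the TSS on either side. In Hdac6 upon GFP KD the promoters of the 9 genes together had 4.07 times the density of their flanks (interval 2.90 to 5.78, from 175 and 44 reads), against 1.60 over all rows. All 9 genes were above their flanks, as were 70.8% of all rows. Ddx4 had 12.5 reads at the promoter and none in the flanks, where a count of 0 allows up to 3 reads as a one-sided bound, and Sohlh2 had 18.6 and 1.6. In Hdac6 upon Tip60 KD the ratio was 3.78 (2.55 to 5.95) against 1.64, and 8 of the 9 genes, all but Dazl, were above their flanks, against 70.4% of all rows.

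The untagged sample gave 1.11 (0.863 to 1.44), against 1.02 over all rows, with 7 of 9 genes above their flanks and 50.1% of all rows. Tip60 upon GFP KD gave 1.39 (1.08 to 1.80) against 1.21, with 6 of 9 genes and 59.6% of all rows above. Tip60 upon Hdac6 KD gave 1.03 (0.751 to 1.42) against 1.10, with 4 of 9 genes and 53.0% of all rows. The intervals of the 3 Flag samples other than Hdac6 thus overlapped each other, whereas those of both Hdac6 samples lay above the untagged interval.

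Hdac6 levels differ with GC content across promoters: upon GFP KD the median RefSeq row had 0.942 RPM at 50 to 55% GC, 1.22 at 55 to 60% and 1.42 at 60 to 65%. Each gene was therefore also placed among the RefSeq rows of the same 5-point class of GC content. In Hdac6 upon GFP KD, Sycp3 was at percentile 99.7 of 4696 rows and Slc25a31 at 99.1. Hormad1 was at percentile 87.2 and Sohlh2 and Dazl at 78.8 and 75.2. Ddx4 and Sycp1 were below the middle of their class, at 23.4 and 34.2. The median percentile of the 9 genes was 75.2 for Hdac6, 64.3 for p400, 57.1 for Tip60 and 63.9 for the untagged sample, with 6 of the 9 genes above 50 in each. High Hdac6 signal for its GC content was therefore seen at some of the 9 genes and not at others. In the untagged sample Sycp3, Slc25a31, Hormad1, Sohlh2 and Dazl were at percentiles 81.9, 66.1, 78.6, 75.1 and 54.6 of the same classes. Hormad1 and Sohlh2 thus ranked nearly as high in the background as in Hdac6.

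**Figure D2:**
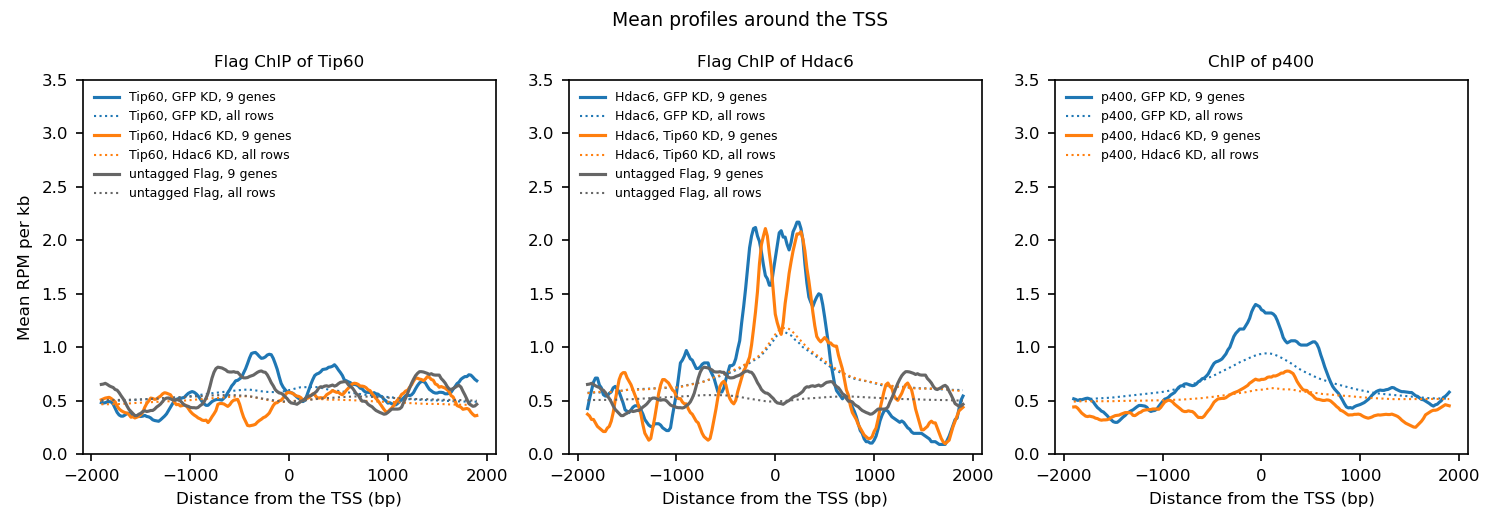
Mean profiles over the 9 genes (solid) and over all rows of the file (dotted), in RPM per kb, smoothed over 100 bp, against the distance from the TSS in bp. The Hdac6 profiles of the genes reach 2.17 upon GFP KD and 2.11 upon Tip60 KD within 500 bp of the TSS, the p400 profile reaches 1.40 upon GFP KD but 0.777 upon Hdac6 KD, and the Tip60 profiles reach no more than 0.951 upon GFP KD and 0.663 upon Hdac6 KD, against 0.813 in the untagged sample.

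Signal was also compared downstream of the TSS (-100 to 300 bp) and upstream of it (-600 to -200 bp). Hdac6 upon GFP KD had 84 reads downstream and 50 upstream over the 9 genes, a ratio of 1.67 (1.17 to 2.43), against 1.35 over all rows. Downstream was the higher in 8 of the 9 genes, all but Slc25a31, and in 60.7% of all rows. p400 upon GFP KD had 120 and 89 reads, a ratio of 1.36 (1.02 to 1.79), against 1.18 over all rows, with downstream higher in 7 of the 9 genes, all but Dazl and Sohlh2, and in 60.2% of all rows. Tip60 upon GFP KD went the other way, with 49 and 66 reads and a ratio of 0.733 (0.502 to 1.09), against 1.03 over all rows, and downstream was the higher in 2 of the 9 genes, Sycp3 and Stk31, against 49.8% of all rows. The untagged sample had nearly the same values as Tip60, 46 and 66 reads and a ratio of 0.705 (0.468 to 1.03), with 3 of 9 genes against 44.5% of all rows. With windows of 0 to 500 bp and -500 to 0 bp the ratio of p400 was 1.03 and that of Hdac6 1.22, against 1.03 and 1.17 over all rows, so that p400 had no lean to either side there.

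p400 had no control ChIP to compare it with, and its flanks served instead. A density above the flanks is therefore not set apart from background of the p400 antibody at promoters. The promoters of the 9 genes had 2.25 times the density of the flanks upon GFP KD (1.81 to 2.83, from 261 and 118 reads), against 1.64 over all rows. All 9 genes were above their flanks, from Dazl at 1.41 to Slc25a31 at 3.09, as were 77.5% of all rows. Upon Hdac6 KD the ratio was 1.71 (1.35 to 2.20) against 1.16, again with all 9 genes above, from Slc25a31 at 1.27 to Ddx4 at 2.56, against 64.0% of all rows. The summits differed between genes. Smoothed over 100 bp, p400 was highest at 0 bp in Slc25a31, at -60 in Stk31, at 100 in Sycp1 and at 140 in Sycp3, whereas in Dazl it was highest at -480, in Mael at 540 and in Ddx4 at 620.

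Whether p400 at these genes depended on Hdac6 was asked by comparing p400 upon Hdac6 KD with GFP KD. The ratio was below 1 in all 9 genes, against 75.3% of all rows, with a median of 0.589 against 0.721 over all rows, a shift of -0.47 on the log2 scale. At least 2-fold lower were 2 of the 9 genes, Stk31 and Dazl, against 19.9% of all rows. Stk31 was the 1 gene that passed the exact test with Benjamini-Hochberg adjustment over all rows, against 13.1% of all rows that passed and were lower. It fell from 36 reads to 17, a ratio of 0.391 (0.201 to 0.696) with an exact test adjusted p = 0.0120. Dazl had 20 and 11 reads, a ratio of 0.460 (0.192 to 0.971) and an exact test adjusted p = 0.129, and Sycp3 43 and 28 reads, a ratio of 0.541 (0.314 to 0.865) and an adjusted p = 0.0566. The upstream Dazl TSS had a ratio of 0.593 (0.299 to 1.11), so the 2-fold call at Dazl held for 1 of its rows. The highest ratio was that of Hormad1, 0.888 (0.504 to 1.64).

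Relative to the median of all rows, 8 of the 9 genes were lower and Hormad1 was higher. With the totals of all rows set equal, the median was 0.857 over the genes and 1.05 over all rows, no gene was 2-fold lower, against 3.84% of all rows, and none passed the adjusted test. After a correction for GC content taken from the flanks the median was 0.590 against 0.705 over all rows, 3 of 9 genes were 2-fold lower against 22.0%, and 2 of 9 passed the adjusted test against 16.1%. Here Sycp3 and Stk31 had ratios of 0.488 and 0.353 with exact test adjusted p-values of 0.0218 and 0.00433. The fall at Stk31 thus passed the adjusted test with the normalizing totals and not with equal totals or in a window of 250 bp on either side of the TSS, and for the other 8 genes a difference was not detectable after adjustment at this depth with the normalizing totals in this window.

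Tip60 upon Hdac6 KD was compared with Tip60 upon GFP KD in the same way. The ratio was below 1 in 8 of the 9 genes, against 60.4% of all rows, and its median was 0.835, against 0.868 over all rows. Ddx4 and Sycp1 were at least 2-fold lower, 2 of 9 genes against 15.9% of all rows. Ddx4 had 19 reads upon GFP KD but 3 upon Hdac6 KD, a ratio of 0.222 with an interval of 0.0333 to 0.597, an unadjusted exact p = 0.00197 and an adjusted p = 0.111. Sycp1 had 24 and 8 reads, a ratio of 0.406 (0.144 to 0.854), an exact p = 0.0126 and an adjusted p = 0.230. These 2 genes had an unadjusted p under 0.05, as did 13.0% of all rows, and 0 of the 9 passed the adjusted test, against 0.422% of all rows that passed and were lower. Sycp3 had 21 and 10 reads, a ratio of 0.520 (0.223 to 1.18), and Stk31 11 and 11 reads, a ratio of 1.13 (0.438 to 2.83). Tip60 upon GFP KD was not detectably above the untagged sample at any of these genes, so how much of either Tip60 level is background is not known. Upon Hdac6 KD the Tip60 levels of Ddx4 and Sycp1, 0.154 and 0.433 RPM, were below their untagged levels of 0.648 and 0.544. Mael and Stk31 were above theirs, at 0.587 against 0.289 and 0.587 against 0.515, and the other genes were below. The cause was not tested.

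The GC content of the genes moved with this comparison. In flanks of the GC classes used for the 9 promoters, Tip60 signal upon Hdac6 KD was 0.799 to 0.874 of that upon GFP KD, whereas between 37.5% and 40.0% GC it was 1.00. Before this correction the summed reads of the 9 genes, 83 upon Hdac6 KD and 147 upon GFP KD, gave a ratio of 0.629 (0.475 to 0.829). After division by these factors the median ratio of the genes was 1.05, on the other side of 1. The correction acts on every row, and the corrected median of all rows is not given here. The value of 1.05 is therefore not read as particular to these genes. Ddx4 had a corrected ratio of 0.264 and Sycp1 of 0.483. Too few flanks had the 64.3% GC of Ddx4, so it was given the factor of the highest class, 60.0 to 62.5%, and its value is not matched in GC. For p400 the flank ratios of the classes used were 0.998 to 1.11.

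**Figure D3:**
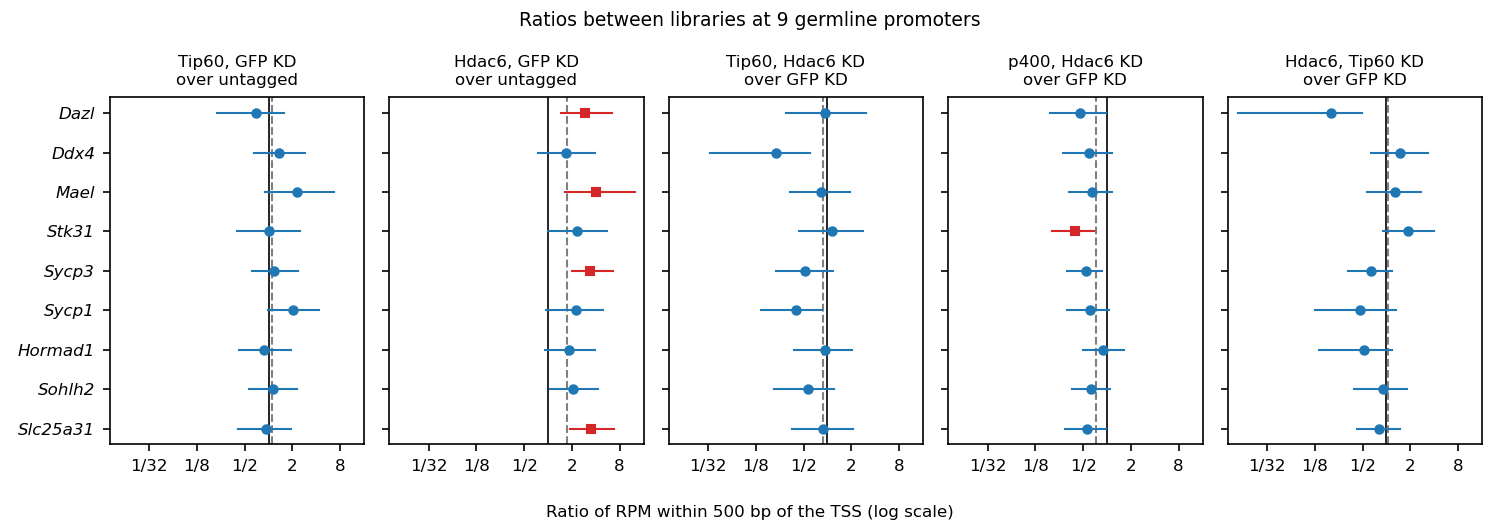
Ratios between the libraries of each comparison at the 9 genes, on a log scale, with 95% counting intervals; red squares have an adjusted p under 0.05 in the exact test over all rows and blue circles do not. The solid line marks 1 and the dashed line the median of all rows, which is 1.12, 1.76, 0.868, 0.721 and 1.05 from left to right; the 9 p400 points all lie left of 1 and the 9 Hdac6 points over untagged all lie right of it.

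Whether Hdac6 at these genes depended on Tip60 was asked by comparing the sample titled Hdac6 ChIP upon Tip60 KD, whose genotype label names Hdac6 KD, with Hdac6 upon GFP KD. Some genes were lower and others higher. The ratio was below 1 in 6 of the 9 genes, against 45.2% of all rows, with a median of 0.804 against 1.05 over all rows. Dazl and Sycp1 were at least 2-fold lower, 2 of 9 genes against 5.88% of all rows. Dazl had 21 reads upon GFP KD and 2 upon Tip60 KD, a ratio of 0.199 with an interval of 0.0136 to 0.489 and an unadjusted exact p = 0.000448. Its upstream TSS had 27 and 4 reads, a ratio of 0.243 (0.0473 to 0.534) and an exact p = 0.000382, from a window that shares reads with the first. The adjusted p was 0.967 for both rows. In the exact binomial test 0 of the 9 genes and 0% of all rows passed the adjusted test and were lower, while 3.58% of all rows, 1314 in number, had an unadjusted p under 0.05, as did 1 of the 9 genes. Sycp1 had 14 and 5 reads, a ratio of 0.469 (0.126 to 1.32), and Stk31 14 and 21 reads, a ratio of 1.85 (0.913 to 4.00). Hdac6 at Dazl upon Tip60 KD was at percentile 10.8 of the RefSeq rows, and at Stk31 at 95.7. In a window of 1000 bp on either side of the TSS Dazl was the 1 gene of the 9 that passed, against 0.00817% of all rows. The rows of Dazl are themselves counted in that share. Dazl had a ratio of 0.184 there and an exact test adjusted p = 0.0197. Within 500 bp of the TSS, Dazl had 0.263 RPM upon Tip60 KD, below its untagged level of 0.593. Its upstream TSS had 0.482 against 0.630. Sycp1 and Hormad1 were also below their untagged levels, and the other genes were above. The cause was not tested.

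**Figure D4:**
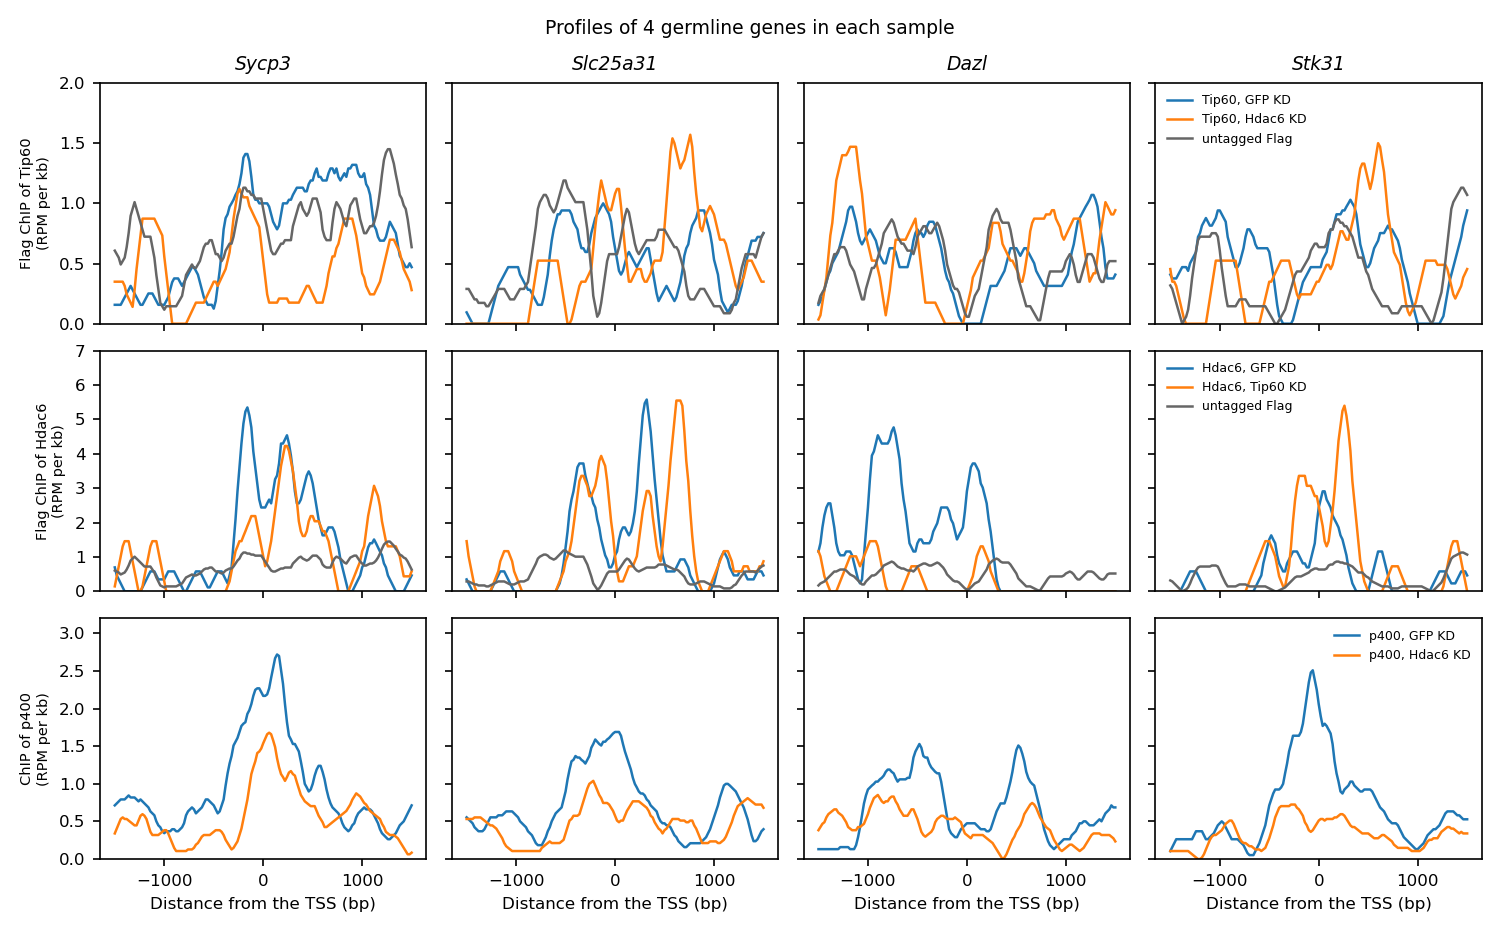
Profiles of Sycp3, Slc25a31, Dazl and Stk31 in each sample, in RPM per kb, smoothed over 100 bp, against the distance from the TSS in bp; the untagged sample is drawn in grey with both Flag ChIPs. Hdac6 upon GFP KD reaches 5.35 at Sycp3 and 5.58 at Slc25a31, at Dazl it is highest at -740 bp, close to the upstream TSS, and p400 at Stk31 reaches 2.51 upon GFP KD and 0.725 upon Hdac6 KD.

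The shapes of single genes rested on few reads. At Dazl, Hdac6 upon GFP KD was highest at -740 bp, near the other TSS 707 bp upstream, with 9 reads over 1 position, and reached 4.77 RPM per kb. At Sycp3 it was highest at -160 bp and at Slc25a31 at 320 bp, with 11 reads each. At Stk31 the highest p400 value upon GFP KD, 20 reads, was at -60 bp, and upon Hdac6 KD the highest held up to 7 reads and lay at -280 bp. The Tip60 values of these 4 genes had no maximum above 11 reads upon GFP KD, and the untagged sample reached 9.

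The 9 genes were set beside other genes of the germline and beside genes active in ESCs. Of 42 other germline genes listed, 33 had a row with a RefSeq identifier. Their median Tip60 ratio over the untagged sample was 1.26. At least 2-fold higher were 3 of 33, against 12.2% of all rows, and 0 passed the adjusted test, against 1.35%. The highest were Brdt, a testis bromodomain protein, at 2.41, Tdrd6, a Tudor protein of germ granules, at 2.09, and Piwil2, a Piwi protein, at 2.05. The lowest were Fkbp6 at 0.681, Nanos2, an RNA-binding factor of male germ cells, at 0.658, and the meiotic recombination gene Msh4 at 0.614. The Hdac6 ratio over the untagged sample had a median of 2.10, with 18 of 33 genes at least 2-fold higher, against 40.4% of all rows. Of the 33 genes, 12 passed the adjusted test, against 22.3% of all rows, among them Brdt at 3.75, Tdrd6 at 4.03 and Piwil2 at 3.82. Msh4 and Nanos2, with CpG ratios of 0.17 and 0.20, had Hdac6 ratios of 1.01 and 0.835. For p400 upon Hdac6 KD the median was 0.702. Here 6 of 33 genes were at least 2-fold lower, against 19.9% of all rows, and 3 passed the adjusted test, against 13.1%. For Tip60 upon Hdac6 KD the median was 0.899. There 2 of 33 were at least 2-fold lower, against 15.9% of all rows, and 0 passed the test, against 0.422%. Hdac6 upon Tip60 KD had a median of 0.879. Of the 33, 1 was at least 2-fold lower, against 5.88% of all rows, and 0 passed the test, against 0%.

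The 12 core pluripotency genes had a median Hdac6 ratio over the untagged sample of 1.41, below the 1.76 of all rows. Of the 12, 4 were at least 2-fold higher, against 40.4% of all rows, and 1 passed the adjusted test, against 22.3%. Their median Tip60 ratio was 0.906, with Tcl1, an Akt cofactor, highest at 2.42 and Tdgf1, the Nodal co-receptor Cripto, next at 1.77, neither past the test. Upon Hdac6 KD their p400 ratio had a median of 0.580, close to the 0.589 of the 9 germline genes. For p400, 5 of the 12 were at least 2-fold lower, against 19.9% of all rows, and 3 passed the test, against 13.1%. Their Tip60 ratio upon Hdac6 KD had a median of 0.790 and their Hdac6 ratio upon Tip60 KD one of 1.09. The 1088 olfactory receptor genes, silent and poor in CpG, had medians of 1.04 for Tip60 and 1.03 for Hdac6 over the untagged sample, 1.01 for Tip60 and 0.988 for p400 upon Hdac6 KD, and 1.03 for Hdac6 upon Tip60 KD. No test between these lists was made.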

How the data were processed

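ChIP-seq profiles of 7 samples, 1 per condition, were analysed. According to the methods and the submitters' processing notes, the authors called bases with CASAVA 1.8.2, mapped reads to mm9 with bowtie (version not given in the sources used here), extended them and deposited coverage signal in ppm at 201 positions every 20 bp from -2000 to 2000 bp around each TSS. The methods state an extension of 150 bp, whereas isolated reads spanned 299 bp outside the Hdac6 files. Identical reads were collapsed with their counts kept, and reads that map to several places were given an alignment picked at random, according to the methods. Duplicate reads thus count in the tests and intervals, which make no allowance for them. All deposited signal values (100%) were whole multiples of 1 read within 0.1 of a step.

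Reads per row are the summed signal divided by the value of 1 read and by the read span, rounded for tests. Windows were -500 to 500 bp. Ratios have 1 read added to both libraries and were called at 2-fold, while their intervals are computed from the reads without it. Reads of both libraries were compared by a two-sided exact conditional binomial test, adjusted by the Benjamini-Hochberg method over all rows, which compares libraries, not conditions. Flag and p400 rows were joined by identifier and file order: at Dazl, 83.1 to 86.1% of overlapping positions were equal in file order and 7.83 to 10.8% when swapped. Python 3.11.15, numpy 2.4.6, scipy 1.17.1 and matplotlib 3.10.9 were used, and the test was checked on simulated data. All 9 genes are named in every sample; of the other germline genes the 3 highest and 3 lowest Tip60 ratios over untagged are named, and of the pluripotency genes the 2 highest. Members and lists were chosen with earlier results of these data known. The GC correction divides a ratio by that in flank windows of the same class of 2.5 points of GC content, in windows without another TSS within 1000 bp and in classes of at least 200 windows; promoters beyond the last such class, as Ddx4, were given its factor. Other windows, totals, added reads, call thresholds, rows and a minimum of 10 reads were tried.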

Additional observations from a re-analysis of the deposited data

How the results depend on the processing

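Single libraries limit these results: replicates could not be left out, and at 2 to 43 reads per gene the counting intervals are wide. No paired analysis was possible because each condition has 1 sample. The values of single genes stayed within their counting intervals in 390 of 396 recomputations, and the 6 others were all Hdac6 ratios over the untagged sample. In none did a gene that had passed the adjusted test change direction. Some settings, such as a minimum of reads or RefSeq rows only, drop rows and leave the ratio of a gene unchanged. Such recomputations could not leave the interval, so the share of 390 in 396 is not a measure of robustness. The counts moved as follows, and the cause was not tested. Tip60 over untagged had 1 gene at least 2-fold higher in windows of 250 bp (17.6% of all rows) and of 1000 bp (5.50%) and with 3 reads added (8.50%), and 0 with equal totals (7.22%). Hdac6 over untagged had 1 gene at least 2-fold higher with equal totals (11.1%) and in deposited ppm (8.60%), with 0 past the adjusted test in both (1.81% and 1.11%), and 4 with equal flank signal (30.7%); 3 of its 4 genes past the test passed with equal flank signal, without Dazl (14.3%), and 3 in the 250 bp window, without Slc25a31 (13.3%). Tip60 upon Hdac6 KD had 1 gene at least 2-fold lower in the 250 bp window (20.9%) and 4 at 1.5-fold (31.4%), and its median went from 0.835 to 1.05 after GC correction. p400 upon Hdac6 KD had 1 gene at least 2-fold lower in the 1000 bp window (11.4%), 0 with equal totals (3.84%), 8 at 1.5-fold (43.3%) and 1 with the upstream Dazl row, an alternative chosen after seeing the data; 0 genes passed the adjusted test in the 250 bp window (4.12%) and with equal totals (1.04%), and 2, Sycp3 and Stk31, passed in the 1000 bp window (19%) and after GC correction (16.1%). Hdac6 upon Tip60 KD had 1 gene at least 2-fold lower in the 1000 bp window (3.42%) and with 3 reads added (1.62%), 4 at 1.5-fold (15.6%), and 1 past the adjusted test in the 1000 bp window (0.00817%); its median was 1.03 in the 250 bp window. With the untagged signal subtracted, the downstream over upstream ratio was 3.48 for Hdac6 (2.24 over all rows). The same step gave 4.10 for p400 (1.88), for which the Flag sample is no control of the antibody used, so nothing is read from it. Flanks of 1000 to 2000 bp, also chosen after seeing the data, gave p400 promoters of 2.28 times their flanks.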
